A study of Mus musculus with 20 samples.

Results

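The genes of the mitogen-activated protein (MAP) kinase cascade and of the dual-specificity phosphatase (Dusp) family were examined for N6-methyladenosine (m6A), a methyl mark carried within RNA, in thymocytes of the mouse. Members were the peaks whose gene symbol, in the authors' annotation, is Map2k, Map3k, Map4k or Mapk followed by a number and nothing else. Peaks whose symbol begins with Rps6k, or with Mapkapk or Dusp and a digit, were members too. Members came to 129 of 25992 peaks, with 66 in iNKT cells and 63 in DP cells. The peaks were named after 49 genes, of which 30 had a peak in both cell types, 12 in iNKT cells alone and 7 in DP cells alone. The 12 made up 28.6% of member genes with an iNKT peak, against 35.2% over all genes, and the 7 made up 18.9% of those with a DP peak, against 33.7% over all genes. RefSeq lists 80 protein-coding mouse genes whose symbols match the rule, and the other 31 have no row in the tables used here.

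A MAP kinase cascade passes a signal through kinases that phosphorylate each other in order. Kinases of the Map4k family activate those of the Map3k family, these phosphorylate Map2k kinases, and these in turn phosphorylate the MAP kinases ERK, JNK and p38. Downstream kinases of the Mapkapk and Rps6ka families carry the signal on, and the MAP kinase phosphatases among the Dusp proteins remove the phosphates again. In the thymus, ERK signalling from the T cell receptor is needed for positive selection of DP cells.

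The mutant mice were labelled Mettl3fl/flCD4-cre and the controls WT, all on C57BL/6 and 6 to 8 weeks old. The floxed gene, Mettl3, makes the enzyme that writes m6A, and a Cre recombinase driven by Cd4 sequences begins to act around the DP stage. Invariant natural killer T (iNKT) cells were sorted as CD1d tetramer-positive and TCRbeta-positive, and DP cells as tetramer-negative cells with both CD4 and CD8. Each genotype had 3 m6A and 3 input libraries for iNKT cells and 2 of each for DP cells, 20 libraries in all. RNA was broken to about 150 nt. The labels name m6A-seq and a low-input form of it without assigning them to cell types, so protocol and cell type cannot be told apart.

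The authors' deposited tables give 1 value per peak for each comparison of genotypes and no value per library. The spread between mice, the depth of each library and the level of each transcript, Mettl3 included, were therefore not analysed here, and it is unknown how far the authors' false discovery rate (FDR) takes in variation between mice. Of markers for iNKT cells, 8 of 8 had a peak in the iNKT table and 5 of 8 in the DP table. Of markers for DP cells, 4 of 8 had one in the iNKT table and 5 of 8 in the DP table. Markers of thymic epithelium and of erythroid cells had none in either table, and of 6 B cell markers 2 had one in the iNKT table and 1 in the DP table. Of 6 myeloid and dendritic cell markers, 1 had one in the iNKT table (Itgax) and 2 in the DP table (Csf1r and Itgam). A peak shows that a transcript was detected and enriched, not how abundant it was.

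The deposited tables do not say which genotype is on top of the log2 fold change. Values below 0 are read here as likely less methylation in Mettl3fl/flCD4-cre than in WT cells, because Mettl3 writes the mark and most of the passing iNKT peaks are negative. With the sign turned, each "lower" below would read "higher" and the reverse. A peak passed at an FDR of the difference below 0.05 in the authors' deposited table, and the sizes of change given below are log2 values.

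Dusp1 was the member whose transcript start, as listed in the RefSeq promoter table, lay under a peak in both tables. It encodes a nuclear phosphatase that is induced by stress and by growth signals and acts on p38, JNK and ERK. The first 30 transcribed bases of Dusp1, from the RefSeq promoter table (GRCm38.p6, chr17:26508443-26508472, minus strand), are shown because they lie inside its 5' UTR peak of the iNKT table and of the DP table. The capitals mark GGACT, a common form of the sequence in which m6A is found.
Dusp1: agtgaaGGACTggcgggaggaaagcgcggt

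The motif takes bases 7 to 11, counted from the listed start as base 1. Both Dusp1 peaks run upstream past that start, to position 26508519, so the count holds for the listed start alone. Of the 4 member genes with a peak over the first 50 transcribed bases of an entry in that table (Dusp1, Dusp2, Rps6ka1 and Rps6ka5), Dusp1 was the 1 with GGACT there. GGACT, searched on the transcribed strand, stood in the first 50 transcribed bases of 5.76% of the 32851 entries for all genes. A match describes the letters in this window and does not place the methylated base.

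In iNKT cells 18 of the 66 member peaks were lower in Mettl3fl/flCD4-cre than in WT cells and 4 were higher, while in DP cells none of 63 passed in either direction. Over all DP peaks 0.743% were lower and 0.483% higher, and 1.44% of genes with a DP peak had a lower one. The lower iNKT peaks made up 27.3% of member peaks (Wilson 95% confidence interval 18% to 39%), against 19.8% of all iNKT peaks. The higher ones made up 6.06% (2.38% to 14.6%), against 5.84% of all iNKT peaks. The lower peaks lay in 13 of 42 genes (31%, interval 19.1% to 46%), against 26.2% of all genes with an iNKT peak. These shares lie near those of the whole table, and the intervals, which cover counting error only and treat peaks as independent, include the table's shares. Member genes had 1.57 iNKT peaks each on average, and all genes had 1.85.

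Member peaks of the authors' deposited iNKT table had a median log2 fold change of -0.95 (95% confidence interval over peaks -1.58 to 0.01), against -0.98 over all peaks. A negative value was listed for 59.1% of member peaks (Wilson interval 47% to 70.1%) and for 68.6% of all iNKT peaks. Among the lower peaks the median was -3.01 for members and -3.64 for all, in the same table. Of the 18 lower peaks, 12 were annotated to the 3' UTR, 5 to exons outside the UTR class and 1 to the 5' UTR. The 4 higher peaks lay in the 3' UTR (3) and the 5' UTR (1).

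**Figure D1:**
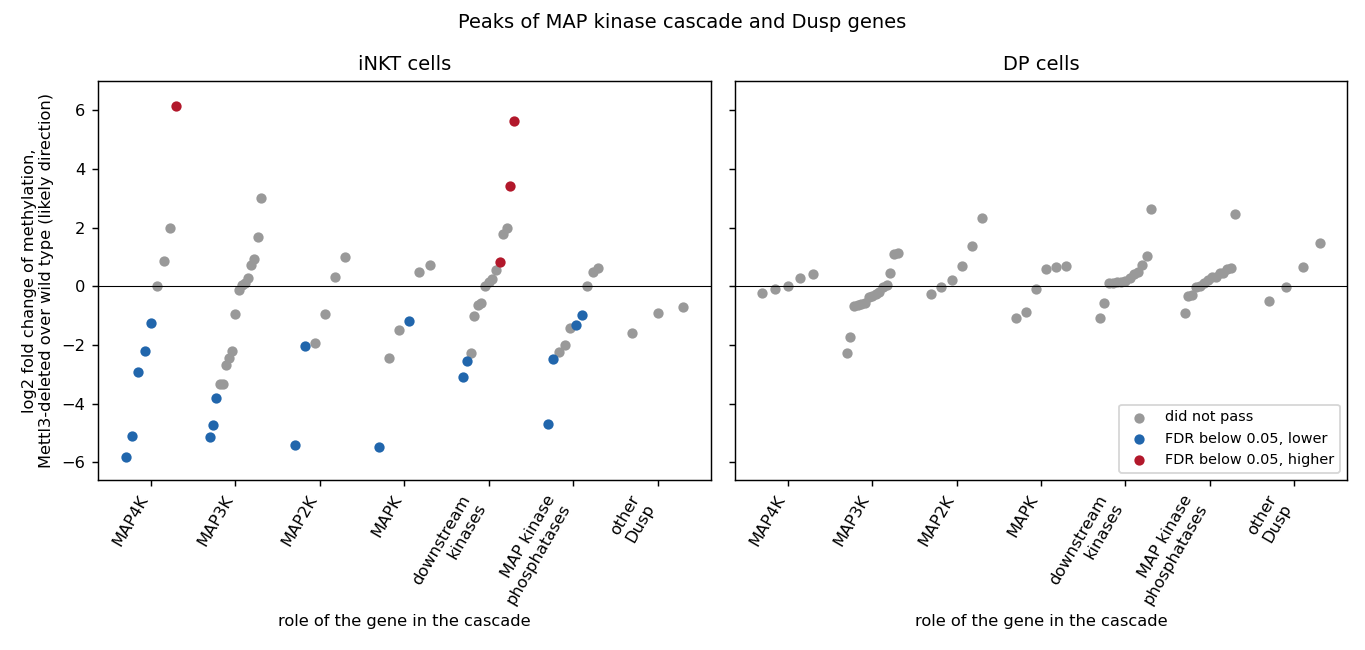
Log2 fold change of each member peak in the authors' deposited tables (y axis, Mettl3-deleted over wild type in the likely direction), by role of the gene (x axis; the downstream class holds all Mapkapk and Rps6k genes), for iNKT cells (left) and DP cells (right). Blue and red points passed as lower and higher; 18 iNKT peaks are blue, 4 are red, and all 63 DP points are grey.

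At the top of the cascade, 5 of 9 MAP4K peaks of the iNKT table were lower and 1 was higher. Over all iNKT peaks 19.8% were lower and 5.84% higher, and the counts of each role below stand beside the same shares. Each role held few peaks, and differences between roles were not tested. Map4k4, which encodes a kinase upstream of JNK signalling, had 6 iNKT peaks, as many as any member. Its longest peak, 331 nt over 3 exonic blocks from the 12th of 31 exons on (chromosome 1, 39990220 to 39999683), stood at -5.83 (log2) in the authors' deposited table. That was the most negative value and the smallest FDR (1e-299) of all member peaks. A second peak, at the 22nd exon (40011665 to 40013944), stood at -5.12 (FDR 5.0e-16) in the authors' deposited table. Of the 2 peaks annotated to its 3' UTR, the one at 40024873 to 40025053 fell by 1.24 (FDR 0.0049) and the one at 40026190 to 40026310 rose by 6.16 (FDR 3.6e-04) in the authors' deposited table. The higher peak ended at the last base of the gene in RefSeq and measured 121 nt. Its evidence over input was weaker, with a log10 p of the peak of -10.2, against -202 for the lower 3' UTR peak. Map4k4 therefore carried changes of both signs, about 1 kb apart at its 3' end. The other 2 Map4k4 peaks, of 61 and 90 nt, did not pass (0.874 and 0.0, FDR 0.76 and 0.77, in the authors' deposited table).

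**Figure D2:**
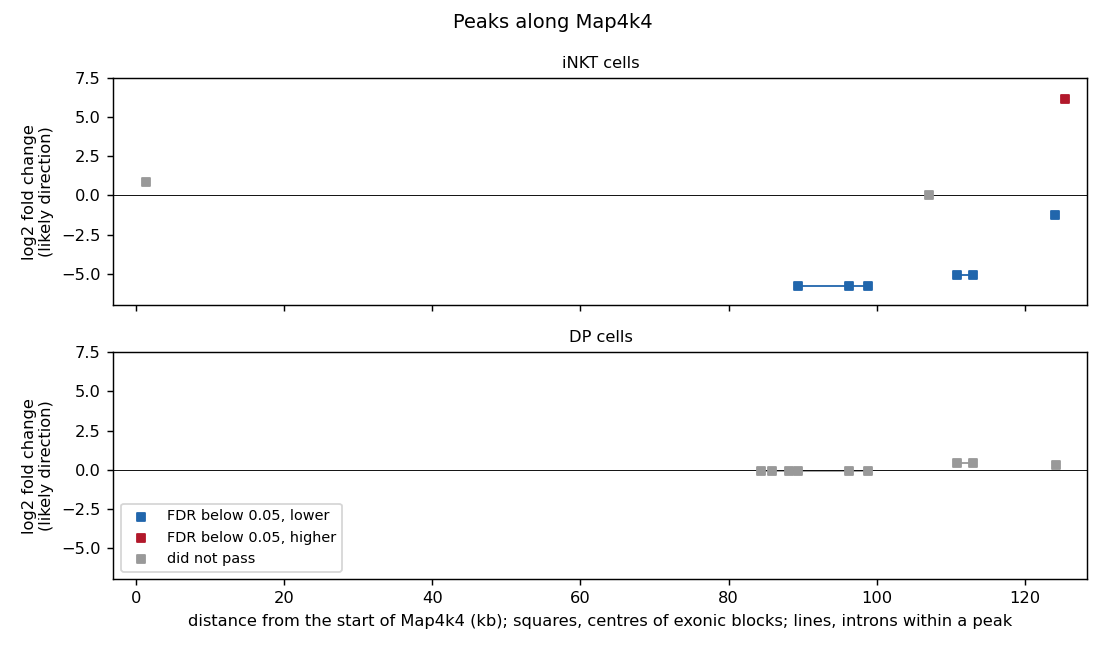
Peaks along Map4k4 in iNKT cells (top) and DP cells (bottom). The x axis is the distance from the start of the gene in kb, the y axis the log2 fold change in the authors' deposited tables; squares are the centres of exonic blocks and lines the introns within a peak. In iNKT cells the 2 internal peaks lie at -5.83 and -5.12 and the last peak at 6.16, while the 3 DP peaks lie between -0.0982 and 0.403.

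Map4k2 encodes germinal centre kinase, which acts toward JNK. The only one of its 3 iNKT peaks within the gene (chromosome 19, 6343881 to 6344447, 3' UTR) fell by 2.22 (FDR 0.0014) in the authors' deposited table. The other 2 peaks named Map4k2 lay in its neighbour Men1, which encodes the tumour suppressor menin. One of them passed (-2.92, FDR 0.048, in the authors' deposited table) and was the weakest call among the lower members. Map4k5 had 1 DP peak (0.00994, FDR 0.67, in the authors' deposited table), and Map4k1, the kinase HPK1 of T cells, had no row in the tables used here.

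Among MAP3K genes, 3 of 17 iNKT peaks were lower, in Map3k1 and Map3k4, and none was higher. Map3k1, which encodes MEKK1, a kinase with a ubiquitin ligase domain, also had 6 iNKT peaks. The peak in the 3' UTR (chromosome 13, 111748701 to 111748940) was listed at -5.14 (FDR 3.0e-07) in the authors' deposited table. The 14th of its 20 exons held a peak (111755859 to 111756158) at -3.8 (FDR 1.1e-04) in the same deposited table of the authors. Within the same exon a weaker peak of 151 nt did not pass (0.93, FDR 0.45, in the authors' deposited table). The change in this exon was thus called over one stretch and not over the next. A peak of 3.0 (FDR 0.64) in the authors' deposited table lay on the strand opposite to Map3k1, over the non-coding Gm15327.

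Map3k4 encodes MEKK4, a kinase upstream of p38 and JNK that is activated by Gadd45 proteins. Its peak in the 3rd of 26 exons (chromosome 17, 12271016 to 12271345) fell by 4.73 (FDR 1.1e-05) in the authors' deposited table. The peak in the 3' UTR of Map3k4 did not pass (-0.134, FDR 0.76, in the authors' deposited table), so the loss was called in the body of the transcript. Map3k10 and Map3k9, which encode mixed-lineage kinases, were listed at -3.33 and -3.32 and did not pass (FDR 0.22 and 0.6, in the authors' deposited table). Map3k8, which encodes the ERK-activating kinase Tpl2, was listed at -2.67 (FDR 0.14) in the authors' deposited table. Map3k7, which encodes the kinase TAK1, had 1 iNKT peak at 1.67 (FDR 0.66) in the authors' deposited table. Values as large as those of passing peaks thus occurred without a call.

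Of the 6 MAP2K genes with an iNKT peak, each with 1, Map2k3 and Map2k7 were lower. Map2k3 encodes a kinase that activates p38. The Map2k3 3' UTR peak (chromosome 11, 60952184 to 60952513) fell by 5.42 (FDR 1.1e-06) in the authors' deposited table, and its enrichment over input, 135-fold, was the highest of all member peaks. Map2k7 encodes a kinase that activates JNK. The Map2k7 3' UTR peak (chromosome 8, 4245833 to 4246342) fell by 2.05 (FDR 4.7e-05) in the authors' deposited table. Their partners for the same MAP kinases, Map2k6 for p38 and Map2k4 for JNK, had 3' UTR peaks at 0.305 and -0.959 that did not pass (FDR 0.76 and 0.44, in the authors' deposited table). Of the kinases of ERK, Map2k1 had a peak of 61 nt (1.0, FDR 0.76, in the authors' deposited table), and Map2k2 had a peak in DP cells alone (0.206, FDR 0.58, in the authors' deposited table). Map2k5, whose substrate is Mapk7, was listed at -1.94 (FDR 0.52) in the authors' deposited table.

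Of 6 MAPK peaks in iNKT cells, 2 were lower. Mapk7 encodes ERK5. Its peak in the 4th of 6 exons (chromosome 11, 61490097 to 61490486) was listed at -5.48 (FDR 1.8e-07) in the authors' deposited table. The peak in its 3rd exon had a similar enrichment (21.4 against 18.1) but did not pass (0.727, FDR 0.76, in the authors' deposited table). The 2 exonic peaks of Mapk7 thus had values of opposite sign. Mapk14 encodes p38 alpha. Its 3' UTR peak (chromosome 17, 28747180 to 28747598) fell by 1.17 (FDR 0.0015) in the authors' deposited table, a small change beside the median of -3.01 for lower members. The peaks named Mapk12 lay within Mapk11, which encodes p38 beta, and the iNKT one was listed at -2.43 (FDR 0.098) in the authors' deposited table. Mapk3, which encodes ERK1, had 1 peak of 90 nt (0.493, FDR 0.76, in the authors' deposited table). Mapk8 and Mapk9, which encode the ubiquitous JNK kinases, had no row in the tables used here.

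The Mapkapk and Rps6k genes, which include the S6 kinases of the mTOR pathway beside kinases downstream of the cascade, had 2 lower and 3 higher among 15 iNKT peaks. Of the higher peaks 2 were in Rps6ka1 and 1 in Rps6kb2, and of the lower ones 1 was in Rps6ka3 and 1 in Ptprcap, a neighbour of Rps6kb2. Rps6ka1 encodes RSK1, a substrate of ERK. Its 5' UTR peak (chromosome 4, 133872947 to 133874635, 121 nt in 2 blocks) rose by 5.63 (FDR 0.0029) in the authors' deposited table. The span of this peak also overlaps the non-coding Gm12977. Its 3' UTR peak, 750 nt long, rose by 0.813 (FDR 0.0068) in the authors' deposited table, the smallest change of any passing member. Rps6ka3 encodes the related RSK2, and its 3' UTR peak (chromosome X, 159363485 to 159363694) fell by 2.55 (FDR 0.0076) in the authors' deposited table. The RSK genes thus had passing 3' UTR peaks of opposite sign.

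Rps6kb2 encodes the S6 kinase S6K2 of the mTOR pathway. Its peak within the gene (chromosome 19, 4157011 to 4157190) rose by 3.42 (FDR 2.5e-09) in the authors' deposited table, with an enrichment over input of 2.91. A peak named Rps6kb2 that fell by 3.11 (FDR 1.3e-39) in the authors' deposited table lay on the other strand within the neighbouring Ptprcap, which encodes a protein associated with CD45. The annotation therefore gave Rps6kb2 both signs, whereas within the gene the call was a rise. Rps6kb1, which encodes S6K1, had 1 iNKT peak (0.572, FDR 0.76, in the authors' deposited table). Mapkapk2, a substrate of p38, was listed at -2.28 (FDR 0.28) in the authors' deposited table. The DP table also held 3 peaks of Mapkapk5 that overlap each other and share most of their bases.

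MAP kinase phosphatases had 4 lower peaks of 10 in iNKT cells and none higher, beside 19.8% lower and 5.84% higher over all iNKT peaks. The 3' UTR peak of Dusp1 (chromosome 17, 26505920 to 26506459) was listed at -4.68 (FDR 1e-246) in the authors' deposited table. The 5' UTR peak of Dusp1, which holds the sequence shown above, fell by 0.995 (FDR 5.4e-06) in the authors' deposited table. Both ends of the Dusp1 transcript were strongly enriched over input, 108-fold at the 3' UTR and 72.7-fold at the 5' UTR. Dusp5 encodes a nuclear phosphatase that is selective for ERK. Its 3' UTR peak of 984 nt, the longest of the iNKT members (chromosome 19, 53541061 to 53542044), fell by 2.47 (FDR 2.5e-96) in the authors' deposited table, with a 107-fold enrichment. Dusp10 encodes a phosphatase of JNK and p38. It had 2 neighbouring 3' UTR peaks with close values, -1.32 and -1.41, of which the stronger passed (FDR 1.6e-06) and the weaker did not (FDR 0.4) in the authors' deposited table.

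The other MAP kinase phosphatases did not pass. Dusp6, a cytoplasmic ERK phosphatase that is itself induced by ERK signalling, was listed at -2.24 (FDR 0.43) in the authors' deposited table. Dusp2, a nuclear phosphatase induced in activated lymphocytes, had a 91 nt peak that begins at the first base of the gene (0.638, FDR 0.41, in the authors' deposited table). Dusp4 had peaks in DP cells alone (-0.348 and 0.618, FDR 0.72 and 0.65, in the authors' deposited table). Of the remaining Dusp genes, Dusp11, Dusp14 and Dusp23 had 1 iNKT peak each, with values from -1.58 to -0.694 in the authors' deposited table, and none passed. Dusp11 encodes a phosphatase that acts on RNA rather than on MAP kinases.

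Lower calls went with the strength of the peak over input, and higher calls did not. The p of the peak and the FDR of the difference were drawn from the same libraries, so they are not independent. The iNKT peaks were divided into 4 groups of near equal size by the p of the peak over input. The strongest group held 27 member peaks, among them all 18 lower ones. In that group 66.7% of member peaks were lower, against 62.8% of all peaks. None of the 39 member peaks in the other 3 groups was lower, where the shares over all peaks were 14.3%, 2.17% and 0.159% from stronger to weaker. In the strongest group, member peaks were lower at about the rate of all peaks there. The 4 higher member peaks were spread over the 3 stronger groups, with 1, 1 and 2 from stronger to weaker. Over all peaks the share called higher was 4.02% in the strongest group and 6.54%, 7.79% and 5.04% in the others, from stronger to weaker. The median exonic length was 315 nt for lower, 150 nt for higher and 180 nt for other member peaks. The median enrichment was 16.5-fold for lower, 7.65-fold for higher and 7.68-fold for other member peaks. Of 40 iNKT member peaks with a change of at least 2-fold in either direction, 20 did not pass.

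**Figure D3:**
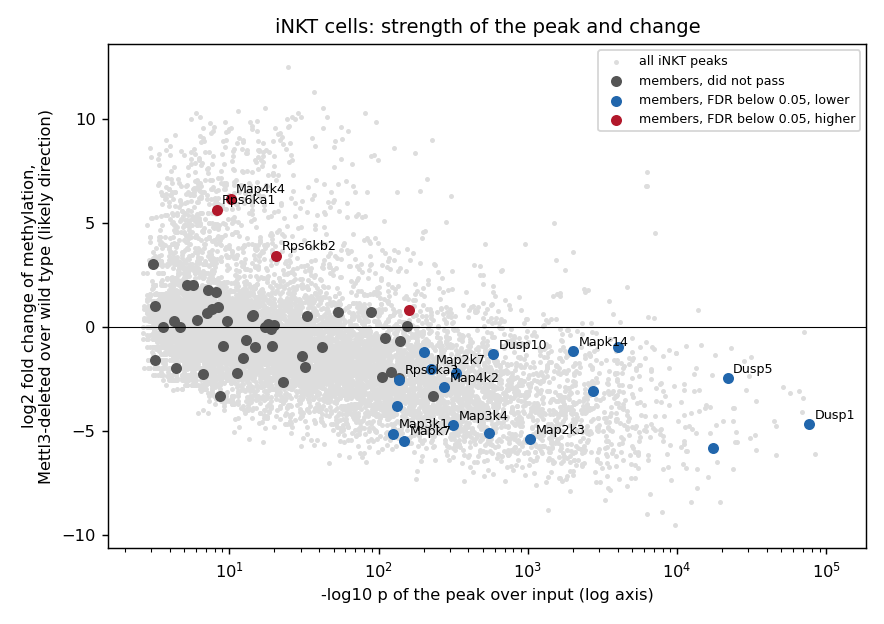
Strength of each iNKT peak (x axis, -log10 of the p of the peak over input, log axis) and its log2 fold change (y axis), from the authors' deposited table, with all peaks in grey and members in colour. Labels stand beside the largest passing change of a gene; Dusp1 and Dusp5 lie at the far right, and the 4 higher members lie left of most lower ones.

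**Figure D4:**
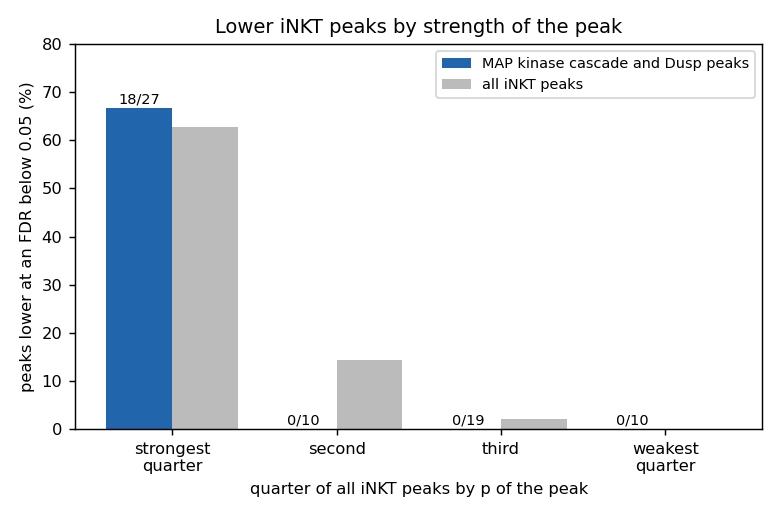
Percent of peaks lower at an FDR below 0.05 (y axis, from 0) in 4 groups of all iNKT peaks by the p of the peak (x axis), for member peaks (blue, with their counts) and all peaks (grey). The bars of the strongest group are 66.7% and 62.8%.

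In DP cells none of the 63 member peaks passed in the authors' deposited table (smallest FDR 0.16), which allows a share of up to 4.76% of such peaks. A count of 0 among 63 lies close to the rate over all DP peaks given above. At an unadjusted p below 0.05, as deposited, 12 member peaks stood out (19%, against 12.7% of all DP peaks), 7 with a positive and 5 with a negative value. The smallest unadjusted p, 0.0056, was that of a Dusp11 3' UTR peak at 0.672 in the authors' deposited table. Rps6kc1 and Map2k3 followed, at 2.65 (p = 0.0076) and 2.33 (p = 0.0078) in the authors' deposited table. Member peaks of the authors' deposited DP table had a median of 0.12 on the log2 scale (95% confidence interval -0.02 to 0.32), against 0.00 over all peaks. Member peaks had a median length of 241 nt in DP cells, the same as all DP peaks. The median enrichment was 4.56-fold for members and 4.7-fold for all.

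The DP and iNKT peaks were set side by side where they shared at least 1 exonic base on the same strand. Of the 66 iNKT member peaks, 35 matched a DP member peak, in 36 pairs and 26 genes. That is 53% of them, against 42.7% of all iNKT peaks that matched a DP peak. All 13 genes with a lower iNKT peak were among them, and 17 of the 18 lower peaks had a match, the Map4k2 peak within its gene being the exception. Of the 31 iNKT member peaks with no match, 1 was lower and 3 were higher. Over all genes 38.3% of matched iNKT peaks were lower, against 48.6% of matched members. Over all genes 6.03% of unmatched iNKT peaks were lower and 8.24% were higher.

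At the 17 matched sites that were lower in iNKT cells, the median log2 fold change was -3.11 in the iNKT table and 0.32 in the DP table, as deposited by the authors. The DP value was positive at 12 of them and negative at 5, and ranged from -0.675 to 2.46 in the authors' deposited table. Over all genes the DP median at such sites was 0.06, with 1264 positive and 966 negative of 2232. Map2k3 showed the widest gap, with -5.42 in iNKT cells and 2.33 in DP cells in the authors' deposited tables. Mapk7 stood at -5.48 in iNKT cells and at 0.686 in DP cells, and the 3' UTR of Dusp1 at -4.68 and 0.316, in the authors' deposited tables. Dusp5 and Mapk14 had -2.47 and -1.17 in iNKT cells and 0.593 and 0.664 in DP cells in the authors' deposited tables. Among the 17 sites, the one named Map4k2 lay in Men1 and the one named Rps6kb2 lay in Ptprcap. No DP value passed, so its sign is given as a description, and the difference between cell types was not tested.

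Rps6ka1 went the other way, with 0.813 at its 3' UTR in iNKT cells and -1.07 in DP cells (unadjusted p = 0.028) in the authors' deposited tables. Map3k1 was negative at its 3' UTR in both, with -5.14 in iNKT cells and -0.675 in DP cells (unadjusted p = 0.023) in the authors' deposited tables. The long internal peak of Map4k4, at -5.83 in iNKT cells, was listed at -0.0982 in DP cells (unadjusted p = 0.045) in the authors' deposited tables. Its DP peak was also strong (log10 p of the peak -1060), so a small value was listed there at high enrichment evidence. The DP peak took in 6 exonic blocks of 869 nt in all, against 3 blocks of 331 nt in iNKT cells.

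Enrichment over input also differed between the tables at these sites. It was higher in the iNKT table in 25 of 36 pairs (69.4%, against 58.9% over all genes), with medians of 9.72-fold in iNKT cells and 5.37-fold in DP cells. The Dusp1 3' UTR had 108-fold in iNKT cells and 3.82-fold in DP cells, and Dusp5 had 107-fold and 6.03-fold, in the authors' deposited tables. Map2k3 had 135-fold in iNKT cells and 3.7-fold in DP cells in the authors' deposited tables. The reverse held for Rps6kb1, whose 3' UTR peak was enriched 4.06-fold in iNKT cells and 68.8-fold in DP cells in the authors' deposited tables. The part of library protocol and depth in these differences was not tested.

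**Figure D5:**
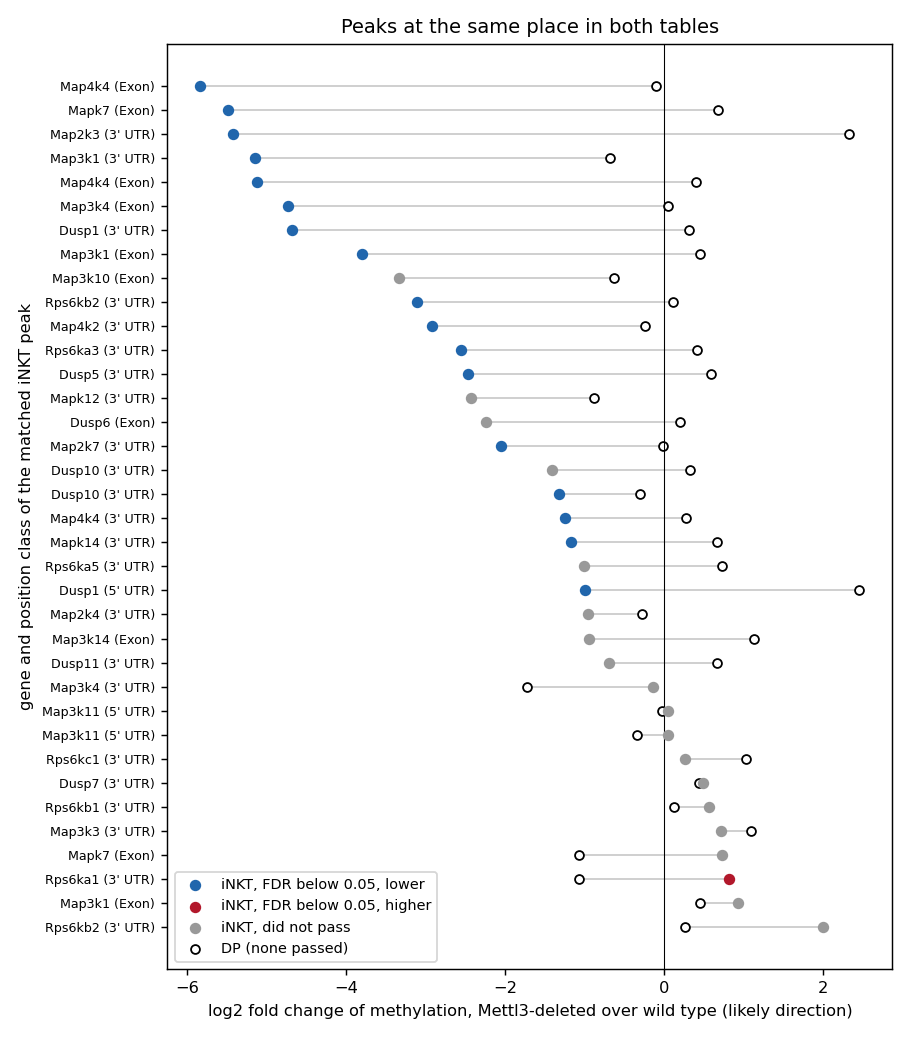
Log2 fold changes in the authors' deposited tables (x axis) at the 36 pairs of overlapping member peaks, 1 row per pair, named by gene and by position class of the iNKT peak (y axis). Filled points are iNKT values, blue where lower and red where higher at an FDR below 0.05, and open points are DP values, none of which passed; open points lie near 0 or to the right for most blue rows.

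Some peaks did not lie in the gene they are named after. By RefSeq spans, 60 of 66 iNKT member peaks lay within the named gene, 5 outside it and 1 on its opposite strand, and of 63 DP member peaks 55 lay within. The DP peaks named Map3k15 lay in Sh3kbp1, and those named Rps6kb2 lay in Ptprcap and in Carns1. With peaks within the named gene alone, 16 iNKT peaks were lower, in 12 genes, and 4 were higher. The authors' gene lists held 31 of the 42 iNKT member genes and 20 of the 37 DP member genes, which are the genes with any negative peak, whether or not it passed.

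Other genes of the pathway, 68 in a list of adaptors, Ras and Raf proteins, scaffolds and nuclear targets, had 81 iNKT peaks in 42 genes. Of these 28 peaks (34.6%) were lower, in 18 genes, and 10 were higher, in 9 genes. Their median fold change was -1.31 (log2) in the authors' deposited table. Over all iNKT peaks 19.8% were lower, 5.84% were higher, and the median was -0.98. Of all genes with an iNKT peak, 26.2% had a lower one. The list was written with earlier results of these data known, and its difference from all peaks was not tested. Lowest in FDR were targets at the end of the cascade: a 3' UTR peak of Jund (-3.18, FDR 1e-434) and a 5' UTR peak of Junb (-1.46, FDR 7.9e-82) in the authors' deposited table, both genes of AP-1 subunits. Mknk2, which encodes a kinase that phosphorylates eIF4E, and Rasal3, a Ras GTPase-activating protein gene, had higher 3' UTR peaks of 5.08 and 4.63 (FDR 1.6e-73 and 1.3e-69) in the authors' deposited table. Fos, another AP-1 gene, and Hras had lower 3' UTR peaks of -4.16 and -5.52 (FDR 3.2e-27 and 2.0e-21) in the authors' deposited table. Junb, Mknk2, Rasal3 and Fos each had passing peaks of the other sign as well, at 1.03, -4.17, -2.34 and 2.26 in the authors' deposited table, so peaks of 1 gene differed in sign. Over all DP peaks 0.743% were lower and 0.483% were higher. In DP cells 85 peaks in 40 of these genes held no lower and 2 higher peaks. One was in Jund (0.335, FDR 0.019), and the other, named Mapk8ip1, lay outside that gene (1.96, FDR 0.023), in the authors' deposited table.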

How the data were processed

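Input and m6A libraries of sorted iNKT and DP cells were processed by the authors. The submitters' processing notes name HOMER 4.9.1, RSEM 1.3.0, STAR 2.6.0a, FastQC 0.11.5, Trim Galore 0.6.5 and build mm10. The deposited peak data carry exomePeak in their name, which points to the program of that name as the peak caller. Its version and settings, and whether replicates were pooled for the calls, remain unknown. Per the file headers, each peak has a p-value, a fold enrichment over input as a linear ratio, log10 p and FDR values (treated as scores) and a log2 fold change between genotypes. The deposited gene lists hold symbols only. Rows that repeat a peak were dropped (24 for iNKT, 5 for DP). Peaks were matched with bedtools 2.31.1, and other steps used Python 3.11.15, pandas 2.3.3, SciPy 1.17.1 and matplotlib 3.10.9. Block overlaps and median intervals were tested on simulated data.

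No test was run on the members: calls are the authors' FDR over the whole table. The members, roles and gene lists were chosen with earlier results of these data known. Named were core members, passing members by role (most negative, largest, smallest FDR), members with both signs, and matched ones, plus examples that did not pass, chosen after their values were seen. Spans and promoter sequences came from RefSeq (GRCm38.p6, the same coordinates as mm10), and 42 of 49 member genes had a promoter entry. GGACT over whole peaks was planned and not run, because no genome was used here. The search of transcript starts was added later.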

Additional observations from a re-analysis of the deposited data

How the results depend on the processing

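Of 46 recomputed values (counts of lower and higher member peaks, genes with a lower peak, medians, and matched peaks), none moved by over 1.5 times, left the interval of its median or changed sign. The settings were an FDR of 0.01, at least a 2-fold change, all rows as deposited, an enrichment of at least 2, no promoter, downstream or intergenic peaks, an overlap of 50% of the shorter peak or of the whole span, and, chosen after seeing the data, peaks within the named RefSeq gene. Lower iNKT peaks numbered 16 to 18 and higher ones 3 to 4. The DP counts were 0 throughout, but no setting loosened the FDR, so they could not have risen. Restoring all rows as deposited, or dropping promoter, downstream and intergenic peaks, left the same 66 iNKT and 63 DP member peaks. Such settings could therefore not change a count or a median. The planned check against gene coordinates in the authors' table was not run as written and was made with RefSeq. No paired analysis was possible because the tables hold no values per replicate, and for the same reason no replicate could be left out. The depth is unknown, so how far it limits the calls cannot be given.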
